A study of Rattus norvegicus with 98 samples.

Results

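The data described here come from rats that breathed 15 ppm formaldehyde for 6 h, set against rats that breathed clean air for the same 6 h. The 4 exposed animals (337, 338, 341 and 342) were the arrays titled for inhalation at 15 ppm and 6 h, and the 4 air animals (321, 322, 323 and 325) were the 0 ppm, 6 h arrays of the same, later array set, 8 of the 98 arrays of the series. All 31042 probe sets that are not Affymetrix controls were tested, and they represented 14217 genes. All 98 animals were male F344/NCrl rats of 8 weeks, none carried a transgene or other allele, and both groups were exposed with the whole body. The remaining arrays held rats that inhaled 0, 0.7, 2 or 6 ppm and were collected at 5 times (82 arrays of the first array set) and rats that received water or 400 mM formaldehyde in the nostrils (8 arrays of the later set). Epithelial cells were freed with proteases from the lateral wall and nasoturbinate at nasal level II; per the labels they were mostly of transitional type, and fewer were respiratory. Each animal gave 1 array, so the spread between arrays includes the spread between animals. A mixed cell suspension was measured, so fewer cells of a type and less RNA per cell cannot be told apart.

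Formaldehyde reacts with amino and thiol groups of protein, DNA and small molecules where it dissolves, and in an obligate nasal breather such as the rat that is chiefly the mucosa of the front of the nose. Cells are known to meet such electrophiles with glutathione-dependent oxidation to formate, with the Keap1 and Nrf2 pathway, which restores thiols, and with heat shock factor, which raises chaperones for damaged protein. Injured epithelium sheds ligands of the EGF receptor, whose signal runs through MAP kinases to immediate early transcription factors and on to growth and migration.

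Values are log2 signals per probe set, so a difference of 1 is a 2-fold change. A probe set was called where the limma test of 15 ppm against air, two-sided, gave a Benjamini-Hochberg adjusted p under 0.05 over all probe sets. "Rose" and "fell" below are used of called genes. Each gene stands for its brightest probe set over the 98 arrays, and n = 4 animals in each group throughout. By this rule 1576 genes changed, 743 up (5.23% of the genes) and 833 down (5.86%). By probe set, 1340 of the 2636 calls were rises (50.8%), and 1595 of 2547 (62.6%) after cyclic loess between arrays. The median called rise was 1.39-fold and the median called fall 1.34-fold, and 90 genes rose but 13 fell at least 2-fold. The 4 exposed animals all lay above the 4 air animals for 1300 genes (9.14%) and all below them for 1618 (11.4%). Of 560 called genes with more than 1 probe set, 190 had another probe set called in the same direction.

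Exposed animals correlated with each other at 0.985 to 0.992 over all probe sets and air animals at 0.991 to 0.995, and the SD at 15 ppm exceeded that in air for 60.8% of probe sets. RNA integrity numbers on the labels were 7.7 to 8.2 at 15 ppm and 7.3 to 7.8 in air, and the labels' absorbance reading of the RNA (OD260) was 1.975 to 2.592 at 15 ppm and 3.023 to 4.08 in air. Both moved with the group, and their part in the results was not tested beyond a fit with the integrity number as a covariate, in which 461 probe sets were called where 2636 were called without it. A second group of 4 air animals at 6 h (49, 50, 52 and 53), from the first array set, differed from the air animals used here in 1460 probe sets, so changes are also given against that group, which shares the exposed animals with the main comparison. Against the first-set air animals 1121 genes rose (7.88%) and 1385 fell (9.74%), and 518 of the 743 rises and 477 of the 833 falls were called in the same direction. The labelled tissue was borne out in part: the basal keratins Krt5 and Krt14 lay at 11.35 to 12.16 and 12.59 to 12.97 at 15 ppm and at 11.59 to 12.31 and 12.10 to 13.00 in air. The cilium regulator Foxj1 lay at 9.40 to 10.14 at 15 ppm and 9.56 to 10.17 in air. Olfactory marker protein, Omp, lay at 10.58 to 12.46 at 15 ppm and 11.34 to 12.37 in air, although the labels say that olfactory epithelium was discarded.

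The largest rise was that of Areg, which encodes amphiregulin, a membrane-bound EGF receptor ligand. Its values were 8.71, 9.01, 8.58 and 8.96 in exposed animals 337, 338, 341 and 342, against 3.93, 4.57, 3.89 and 3.46 in air animals 321, 322, 323 and 325. The lowest exposed animal stood more than 4 log2 units above the highest air animal, with no overlap. First-set air animals spread further, from 4.31 to 6.52, and none reached the exposed ones. Plaur, the urokinase receptor that gathers plasminogen activation at the surface of migrating cells, had 8.43, 8.19, 7.78 and 8.22 at 15 ppm against 4.78, 4.61, 4.75 and 4.27 in air. The other probe set of Plaur moved by 0.14 and was not called. Tnfrsf12a, the receptor of the cytokine TWEAK, had 10.87, 10.53, 10.60 and 10.90 at 15 ppm against 7.34, 7.28, 7.12 and 6.96 in air. At the probe sets given, the groups of both genes were far apart, and Tnfrsf12a differed by 3.55 ± 0.19 (SE; limma adjusted p = 1.31e-25). Fosl1, the AP-1 subunit Fra-1 that is induced by EGF receptor signalling, had 8.33, 8.35, 8.26 and 8.73 at 15 ppm against 4.97, 4.89, 4.93 and 5.24 in air. Hmox1, heme oxygenase 1, had 11.46, 11.16, 10.76 and 11.34 at 15 ppm against 7.98, 7.65, 8.09 and 7.54 in air, with animal 341 the lowest of the exposed. Egr2, a zinc finger transcription factor of the immediate early class, had 8.30, 8.55, 8.25 and 8.71 at 15 ppm against 4.90, 5.25, 4.47 and 5.26 in air. The other probe set of Egr2 moved by 0.17 and was not called. For Egr2 the first-set air animals lay at 7.06, 7.23, 7.67 and 7.75, much nearer the exposed animals than their own air animals were, which was not so for Tnfrsf12a (7.07 to 7.37) or Hmox1 (7.52 to 7.72).

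**Figure D1:**
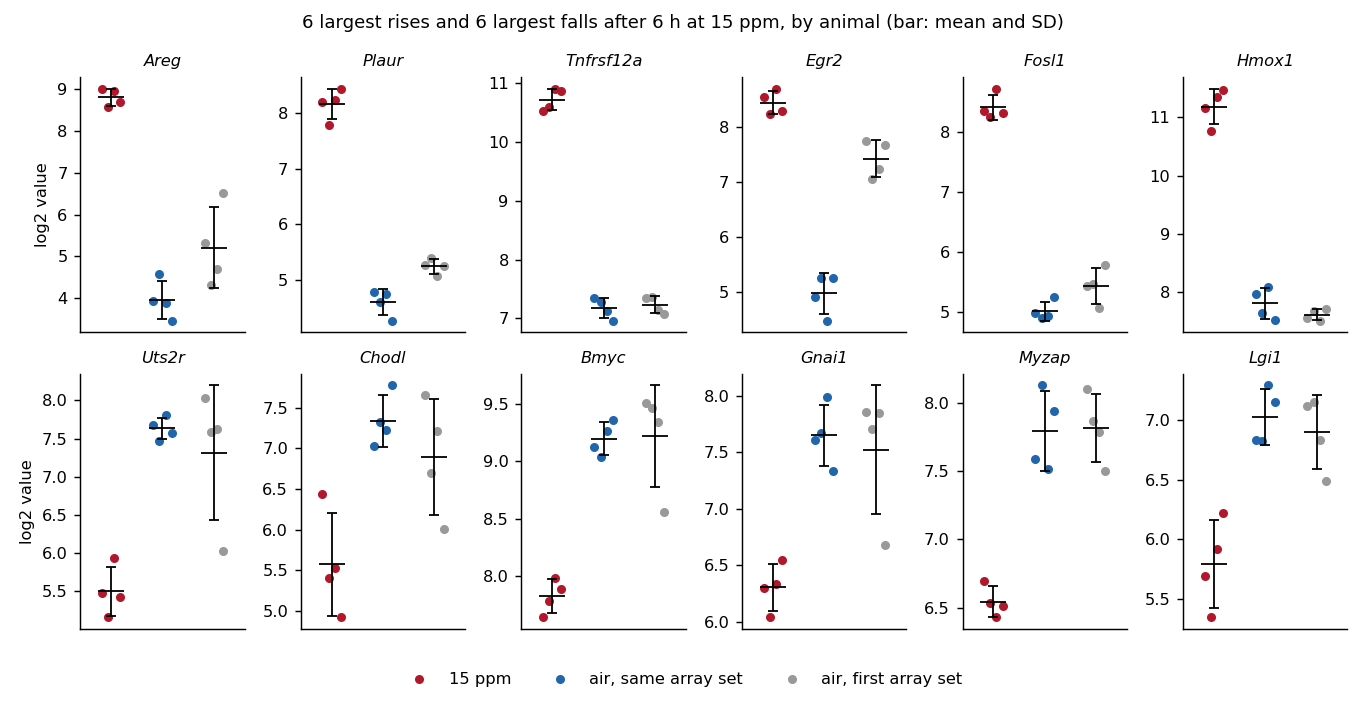
Log2 value (y axis) of the 6 genes with the largest rises (upper row) and the 6 with the largest falls (lower row), 1 point per animal, at 15 ppm (left), in air of the same array set (middle) and in air of the first array set (right); bars show mean and SD, n = 4. No exposed animal overlaps an air animal of the same set, and Egr2 in first-set air lies at 7.06 to 7.75, between its other groups.

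Among the 14 measured genes of EGF receptor signalling 4 rose and 2 fell (median log2 change −0.07, against −0.02 over all genes). The 4 rises were ligands: Areg, Hbegf, Nrg1 and Ereg. Hbegf, the heparin-binding ligand, had 7.71, 7.52, 7.45 and 7.57 at 15 ppm against 5.40, 5.14, 5.08 and 5.21 in air. Nrg1, a ligand of the related receptors Erbb3 and Erbb4, rose by 0.75 ± 0.17 (SE; adjusted p = 0.00131) and Ereg, epiregulin, by 1.31 ± 0.42 (adjusted p = 0.0362), both in limma. The 2 falls were the receptor Erbb2, by 0.73, and Lrig1, by 0.81, a transmembrane protein that promotes degradation of EGF receptors. Against first-set air Ereg (0.27), Lrig1 (−0.35) and Erbb2 (−0.50) were not called. Downstream of the receptors, 3 of 13 genes of MAP kinase feedback rose (Dusp5, Dusp6 and Dusp7) and 0 fell by the limma test; Dusp6, the phosphatase of ERK, had 11.05, 11.07, 10.85 and 11.19 at 15 ppm against 10.14, 10.21, 10.16 and 10.17 in air. Its 4 exposed animals lay above every air animal, and both its other probe sets were also called.

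Of 29 Egr, Klf, Nr4a and related genes 12 rose and 0 fell in limma, with a median of 0.37. Nr4a2, an orphan nuclear receptor, rose by 1.80 ± 0.24, Myc, a driver of growth, by 1.33 ± 0.27, and Egr1 by 1.14 ± 0.21 (SE; adjusted p = 3.92e-08, 0.000286 and 6.51e-05). Against first-set air 8 of the 29 rose and 2 fell, 6 genes were called as rises against both air groups, and the median was 0.07. Egr1 lay at 11.09 to 11.79 at 15 ppm, at 9.91 to 10.57 in its own air and at 11.20 to 11.68 in first-set air, so its exposed animals lay above one air group and among the other. The same held for Fosb, an AP-1 subunit, with 8.16 to 9.0 at 15 ppm, 6.01 to 7.07 in its own air and 8.08 to 9.30 in first-set air, and for Atf3, a stress-induced factor that dimerises with AP-1 proteins, with 9.92 to 10.37, 7.24 to 7.88 and 9.56 to 10.52. Zfp36, which destabilises mRNAs with AU-rich elements, was called with a rise of 0.94 against its own air and stood at −0.44 against first-set air. The AP-1 list had 4 rises among 15 genes (Fosl1, Atf3, Fosb and Crem) against its own air, and 1 rise, Fosl1, and 1 fall against first-set air. What separated the air groups was not tested.

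**Figure D2:**
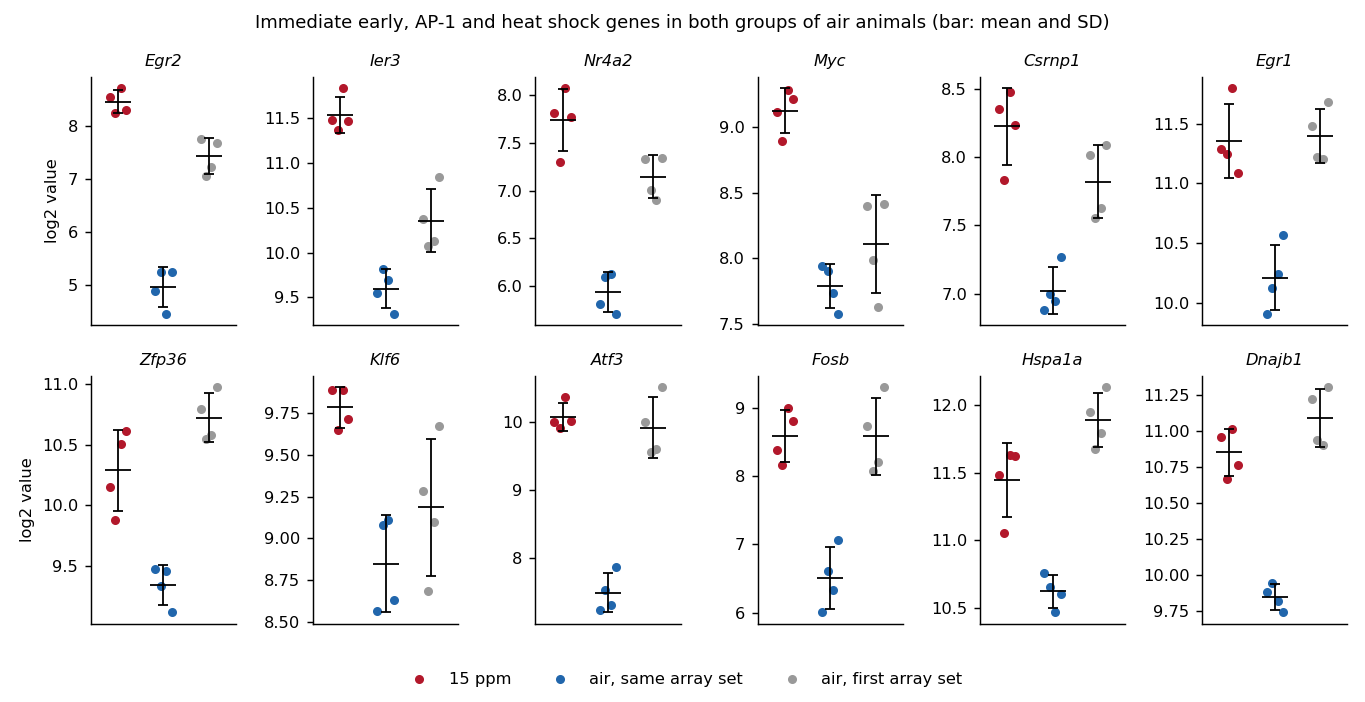
Log2 value (y axis) by animal of 8 immediate early genes, 2 AP-1 partners (Atf3, Fosb) and 2 heat shock genes (Hspa1a, Dnajb1), at 15 ppm (left), in air of the same array set (middle) and in air of the first array set (right); bars show mean and SD, n = 4. The first-set air animals lie among or above the exposed ones for Egr1, Zfp36, Atf3, Fosb, Hspa1a and Dnajb1.

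Of 27 measured genes of thiol and oxidative defence 10 rose and 2 fell against the animals' own air. Against first-set air 13 rose and 1 fell, and these included all 10 of the rises. Slc7a11, the cystine importer that supplies glutathione synthesis, had 8.97, 8.85, 8.76 and 9.34 at 15 ppm against 6.51, 6.74, 6.34 and 6.15 in air, without overlap. Osgin1, an oxidative stress-induced growth inhibitor, rose 2.70-fold, Akr1b8, an aldo-keto reductase, 2.19-fold, Cbr1, a carbonyl reductase, 1.86-fold and Txnrd1, thioredoxin reductase, 1.75-fold. The 2 falls were Ephx1, microsomal epoxide hydrolase, by 0.36, and Abcc4, an exporter of organic anions, by 0.75. Of the 5 measured small Maf and Bach factors, the partners and antagonist of Nrf2 on DNA, 4 rose against each air group: Maff, Mafk, Mafg and the repressor Bach1. Mafk, for example, differed by 1.01 ± 0.13 (SE; limma adjusted p = 1.61e-08). The enzymes that clear formaldehyde itself were not called. Adh5, the glutathione-dependent formaldehyde dehydrogenase, had 10.82, 11.06, 11.18 and 10.89 at 15 ppm against 11.22, 10.98, 11.14 and 11.18 in air, overlapping, and the 95% interval of its difference ran from −0.43 to 0.13. Aldh2, the mitochondrial aldehyde dehydrogenase, had an interval of −0.51 to 0.10, and its lowest value was that of animal 341. In that list of 23 genes 1 rose (Akr1b1) and 2 fell (Aldh4a1 and Cbr4), where 5.23% of all genes rose and 5.86% fell.

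Of 36 measured cytosolic and mitochondrial chaperone genes 15 rose and 0 fell in limma, 29 lay above air and the median was 0.25, and 11 of these were also called against first-set air. Dnaja1, a J-domain cochaperone of Hsp70, had 11.59, 11.73, 11.71 and 11.69 at 15 ppm against 10.86, 10.92, 10.89 and 10.83 in air. The values within each group lay close together and the groups did not overlap, the difference being 0.80 ± 0.09 (SE). Hspe1 and Hspd1, the mitochondrial chaperonin pair, rose by 0.54 ± 0.07 and 0.48 ± 0.07, Hsph1, a nucleotide exchange factor of Hsp70, by 0.56 ± 0.14, and the chaperonin subunit Cct5 by 0.32 ± 0.07 (SE; adjusted p at most 0.00537 for these 4). Small and inducible members were larger but depended on the air group: Hspb1 rose by 1.82 against its own air (0.71 and not called against first-set air), and Dnajb1 and Hspa1a rose by 1.00 and 0.83 but stood at −0.24 and −0.44 against first-set air. Outside that list Zfand2a, a proteasome-binding protein induced by heat shock factor and arsenite, had 9.43, 9.28, 9.21 and 9.47 at 15 ppm against 7.67, 7.56, 7.37 and 7.55 in air.

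Promoters are shown for chaperone genes that rose. Promoter windows of 300 bases, from 250 before to 50 after the annotated start, came from RefSeq on build GRCr8, and 30 of the 36 chaperone genes had one. The minimal heat shock element GAANNTTC, which reads the same on both strands, was present in 12 of these 30 windows (40%) and in 7 of the 13 windows of genes that rose, against 8.34% of all 27457 windows of the same length. A match is a description of the letters and not evidence of binding. Capitals mark each match, and every sequence is written 5′ to 3′ on the strand of its gene, for the chaperones that rose with the 2 smallest adjusted p among those with a match and for 2 whose rise depended on the air group.
Dnaja1 (chr5:60638154-60638453, plus strand): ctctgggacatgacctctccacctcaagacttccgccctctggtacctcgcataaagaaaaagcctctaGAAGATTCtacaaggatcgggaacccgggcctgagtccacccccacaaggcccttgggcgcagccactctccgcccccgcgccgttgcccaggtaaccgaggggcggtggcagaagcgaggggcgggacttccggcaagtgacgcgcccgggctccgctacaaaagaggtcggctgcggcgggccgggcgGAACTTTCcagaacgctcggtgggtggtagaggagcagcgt
Hspe1 (chr9:64084077-64084376, plus strand): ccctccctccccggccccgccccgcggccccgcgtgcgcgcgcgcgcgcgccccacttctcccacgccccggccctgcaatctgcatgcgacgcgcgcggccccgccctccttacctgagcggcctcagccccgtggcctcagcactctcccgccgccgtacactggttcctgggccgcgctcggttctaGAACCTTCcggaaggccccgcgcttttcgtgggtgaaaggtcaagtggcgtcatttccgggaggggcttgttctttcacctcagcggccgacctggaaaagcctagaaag
Hspb1 (chr12:26432252-26432551, minus strand): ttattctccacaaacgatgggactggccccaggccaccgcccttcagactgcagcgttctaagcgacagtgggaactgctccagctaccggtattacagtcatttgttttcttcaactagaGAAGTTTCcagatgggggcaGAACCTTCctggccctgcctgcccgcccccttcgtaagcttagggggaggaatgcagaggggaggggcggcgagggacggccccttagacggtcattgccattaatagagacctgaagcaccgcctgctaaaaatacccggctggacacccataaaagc
Dnajb1 (chr19:41431092-41431391, minus strand): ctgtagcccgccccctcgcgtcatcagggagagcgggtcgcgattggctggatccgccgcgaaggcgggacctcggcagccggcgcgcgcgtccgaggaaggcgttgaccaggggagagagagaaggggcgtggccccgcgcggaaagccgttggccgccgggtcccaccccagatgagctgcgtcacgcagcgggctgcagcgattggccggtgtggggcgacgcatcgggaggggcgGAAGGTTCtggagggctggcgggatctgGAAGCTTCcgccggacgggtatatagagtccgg
The Dnaja1, Hspb1 and Dnajb1 windows each held 2 matches and the Hspe1 window 1. Hspd1 is transcribed away from Hspe1 on the opposite strand (chr9:64083988-64084287), and the overlap of the windows holds the Hspe1 match. Other elements were searched in the same way. The antioxidant response element TGACNNNGC was found in 5 of 23 windows of the thiol defence list (21.7%) against 12.2% of all windows, and in the windows of 1 of its 9 genes that rose (Gclm). The element TGATGNAA, bound by ATF4 with C/EBP proteins, was found in 5 of 24 windows of the integrated stress response list (20.8%) and 3.82% of all windows, and in 0 of the 3 windows of genes of that list that rose, Ppp1r15a, Atf4 and Ddit3. In the same list TGACNNNGC was found in 9 of 24 windows (37.5%). The cAMP response element TGACGTCA was in 1 of 22 immediate early windows (Ier2) and 1.91% of all windows, and the AP-1 site TGANTCA in 2 of 22 (9.09%) and 7.33% of all windows. TGACNNNGC and TGANTCA can overlap.

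In the integrated stress response, in which phosphorylated eIF2 slows translation and raises ATF4, 3 of 24 genes rose and 1 fell. Ppp1r15a, the phosphatase subunit that reverses eIF2 phosphorylation, had 9.88, 9.77, 9.53 and 9.82 at 15 ppm against 8.27, 8.10, 8.03 and 7.98 in air. Atf4 had 12.06, 11.90, 11.97 and 11.85 at 15 ppm against 11.22, 11.22, 11.15 and 10.90 in air, and Ddit3, the CHOP factor, rose 4.43-fold. Known targets of ATF4 were not tallied, and the following are examples. Slc7a11 rose by 2.54, whereas 3 others were not called: Asns, asparagine synthetase, differed by 0.00 ± 0.12, Chac1, a glutathione-degrading enzyme, by 0.12 ± 0.27 and Trib3, a pseudokinase, by 0.73 ± 0.27 (SE; adjusted p = 0.992, 0.869 and 0.0752 in limma). The sensor kinase gene Eif2ak3 fell by 0.44. Of 20 chaperones and sensors of the endoplasmic reticulum 1 rose (Dnajb9, by 0.98 ± 0.12) and 2 fell (Herpud1 and Pdia3), with a median of −0.09. The shares over all genes were 5.23% up and 5.86% down. Of 19 p53 targets and growth arrest genes 6 rose and 0 fell in limma. Gadd45a, which slows the cycle after genotoxic and other stress, had 10.51, 10.62, 10.27 and 10.54 at 15 ppm against 8.97, 8.86, 8.90 and 8.67 in air, and Plk2, a stress-induced polo kinase, rose 2.16-fold. Gdf15, a secreted stress cytokine of the TGF-beta family, had 7.62, 7.47, 7.10 and 7.31 at 15 ppm against 5.69, 5.73, 5.61 and 5.72 in air.

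Genes of ribosome production gave the highest share of members called in any list of 10 or more genes. Of 39 measured genes that process ribosomal RNA and assemble subunits 28 rose and 0 fell in limma, with a median change of 0.51. In limma 5.23% of all genes rose, and this list had been noted in earlier results of these data, so its share is given as a description. Nop56, a core protein of the particles that methylate ribosomal RNA, had 10.38, 10.50, 10.47 and 10.57 at 15 ppm against 9.40, 9.37, 9.33 and 9.27 in air, a difference of 1.14 ± 0.08 (SE; adjusted p = 4.83e-19). Its second probe set moved by 1.12. Gnl3, nucleostemin, had 9.81, 9.96, 9.76 and 10.26 at 15 ppm against 8.35, 8.56, 8.48 and 8.31 in air. For both genes the exposed animals lay about 1 unit or more above every air animal. Rrs1, an assembly factor of the large subunit, rose 2.00-fold, Nolc1, a nucleolar chaperone, 1.71-fold and Nop58, the partner of Nop56, 1.68-fold. The 11 genes not called included Polr1a, the largest subunit of RNA polymerase I, and Utp20, at −0.01 and −0.09.

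Similar values were obtained against the first-set air animals, where 27 of the 39 rose, 26 of them the same genes, with a median of 0.48. Each animal's mean over the 39 genes was 8.34 to 8.57 at 15 ppm, 7.91 to 7.97 in air and 7.89 to 8.00 in first-set air. With the integrity number as a covariate the median stayed at 0.51, but the median SE of a gene was 0.13, against 0.10 without it, and 3 of the 39 were called.

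**Figure D3:**
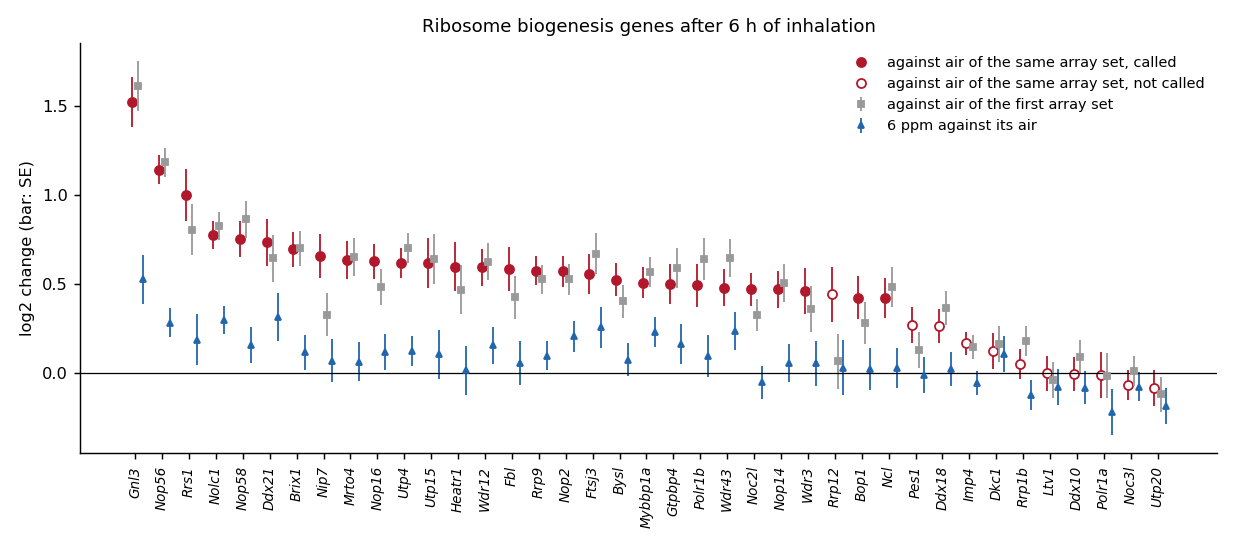
Log2 change (y axis, bars show SE, n = 4 per group) of the 39 measured ribosome biogenesis genes (x axis, by size): 15 ppm against air of the same array set (circles, filled where called), 15 ppm against air of the first array set (squares) and 6 ppm against its own air (triangles). The 28 called genes lie between 0.42 and 1.52, and the squares follow the circles while the 6 ppm triangles lie lower.

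In 2 other lists of growth the share of members that rose was above that of all genes, though most members were not called. Over all genes 5.23% rose and 5.86% fell. Of 16 genes of polyamine and one-carbon metabolism 6 rose and 0 fell in limma. Mat2a, which makes S-adenosylmethionine, had 10.47, 10.45, 10.42 and 10.71 at 15 ppm against 9.91, 9.73, 9.85 and 9.90 in air, and Odc1 and Amd1, the decarboxylases at the head of polyamine synthesis, rose 1.72-fold and 2.22-fold. Of 19 aminoacyl-tRNA synthetases 5 rose and 0 fell (Nars1, Tars1, Rars1, Mars1 and Yars1), by 0.22 to 0.52, with a list median of 0.03. Of 34 genes of the cell cycle and replication 2 rose (Pcna and Ccne2) and 1 fell (Racgap1). Pcna, the sliding clamp of DNA replication and repair, had 11.85, 11.98, 11.80 and 12.05 at 15 ppm against 11.15, 11.11, 11.15 and 11.10 in air. Mki67, which marks cycling cells, had 7.12, 6.64, 6.83 and 6.59 at 15 ppm against 6.95, 6.80, 6.53 and 6.47 in air, overlapping, with an interval of −0.38 to 0.58. Of 22 genes of crosslink and excision repair 2 rose and 2 fell: Sprtn, the protease that removes DNA-protein crosslinks, by 0.36 and Usp1 by 0.34 upward, and Tdp1 by 0.32 and Fancl by 0.29 downward.

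Matrix and adhesion genes are given beside the 5.23% of all genes that rose and the 5.86% that fell. Of 21 matrix metalloproteinases and inhibitors 1 rose, Timp1, a metalloproteinase inhibitor, by 1.25 ± 0.22 (SE; limma adjusted p = 2.11e-05), and 2 fell, Timp4 and Adamts15. Of 27 tight junction and adhesion genes 2 fell, Cgn, cingulin, with 8.08, 7.63, 7.57 and 7.85 at 15 ppm against 8.51, 8.24, 8.35 and 8.52 in air, and Cldn8, a claudin, by 0.66. Neither was called against first-set air.

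Inflammatory genes are given beside the 5.23% of all genes that rose and the 5.86% that fell. Most calls among them were in the lists of NF-kappaB factors and feedback and of chemokines and their receptors. Of 21 NF-kappaB factors and feedback genes 11 rose and 0 fell in limma. Bcl10, an adaptor upstream of NF-kappaB, had 9.85, 9.72, 9.88 and 9.96 at 15 ppm against 9.17, 8.98, 9.19 and 9.01 in air, and Icam1, the leukocyte adhesion molecule, rose 2.07-fold. Against first-set air 6 of the 11 were called, without 1 animal 6 to 10 of the list were (6 without exposed animal 342), and Cebpd, a factor of the acute phase, stood 1.18 above its own air and at −0.11 against first-set air. Of 18 CXC chemokines and receptors 5 rose (Cxcl1, Cxcl2, Cxcl3, Cxcl16 and Cxcr2) and of 19 CC chemokines and receptors 4 (Ccl2, Ccl7, Ccr1 and Ccr2), and 0 fell in either. Of the 5 CXC rises 3 were also called against first-set air, where 2 CXC members fell. The CXC median was 0.36 against own air and 0.07 against first-set air. Cxcl2 stood 1.39 above first-set air and was not called. All 4 CC rises were called against both air groups. Cxcl1, a neutrophil attractant, had 9.07, 9.01, 8.85 and 9.34 at 15 ppm against 6.06, 5.52, 5.36 and 6.09 in air, and 6.70, 6.96, 8.45 and 7.26 in first-set air animals 49, 50, 52 and 53. Of 27 cytokines and receptors 2 rose, Il17ra by 0.49 and the epithelial cytokine Tslp by 0.66. Of 25 genes of prostaglandin metabolism 1 rose, Ptgs2, while 3 fell: Pla2g4a, the phospholipase that releases arachidonate, by 1.02, Hpgd, which degrades prostaglandins, by 0.59, and the exporter gene Abcc4. Ptgs2, the inducible cyclooxygenase, had 8.79, 8.45, 8.43 and 9.02 at 15 ppm against 5.34, 5.90, 5.47 and 6.94 in air, with air animal 325 the highest. Interferon-stimulated genes gave 1 fall, Ifi27, among 20.

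Neutrophil markers were examined beside these chemokine genes, and the part of neutrophils in the results was not tested. Of 11 measured neutrophil markers 4 rose (S100a8, S100a9, Csf3r and Cxcr2) and 0 fell, and 2 of the 4 were called against first-set air. The summed linear signal of the 11 was 4067 to 5017 at 15 ppm, 1100 to 1748 in air and 1258 to 3468 in first-set air. S100a8 and S100a9 made up most of that sum. Without them it was 626 to 809 at 15 ppm, 424 to 523 in air and 445 to 545 in first-set air. S100a8, a calcium-binding protein of neutrophils that stressed epithelium also makes, had 10.34, 10.33, 10.22 and 9.97 at 15 ppm against 7.51, 7.95, 8.43 and 8.33 in air. Csf3r, the G-CSF receptor, had 6.10, 6.97, 6.45 and 6.85 at 15 ppm against 5.07, 4.94, 5.35 and 4.97 in air. Both genes were higher in every exposed animal, but S100a8 was not called against first-set air (1.37), and without 1 animal 2 to 4 of the 11 rose (2 without exposed animal 338 or 342 or air animal 321, 322 or 325). Of 16 macrophage and dendritic, 13 lymphocyte and 10 mast cell and eosinophil markers 0 were called in limma. Among 4 red cell markers Ahsp, which stabilises alpha haemoglobin, rose by 1.31, with 9.61 in animal 337 and 7.61 to 8.02 in the other exposed animals, against 6.36 to 7.53 in air.

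Uts2r, the receptor of the vasoactive peptide urotensin II, had 5.43, 5.48, 5.16 and 5.93 at 15 ppm against 7.68, 7.48, 7.80 and 7.58 in air. In first-set air it had 7.58, 7.62, 6.03 and 8.03, so that animal 52 came close to the exposed animals. Chodl, a membrane lectin-like protein, had 4.92, 6.44, 5.41 and 5.53 at 15 ppm against 7.02, 7.33, 7.23 and 7.77 in air, the widest spread of the 6 largest falls. Bmyc, a Myc-related gene of rodents, had 7.88, 7.64, 7.78 and 7.98 at 15 ppm against 9.13, 9.03, 9.27 and 9.37 in air, well separated. Gnai1, an inhibitory G protein subunit, had 6.54, 6.30, 6.04 and 6.34 at 15 ppm against 7.60, 7.67, 7.99 and 7.33 in air. Myzap, which encodes a protein of cell junctions, had 6.52, 6.70, 6.54 and 6.43 at 15 ppm against 7.58, 8.13, 7.51 and 7.94 in air. Lgi1, a secreted neuronal protein, had 6.22, 5.69, 5.35 and 5.92 at 15 ppm against 6.83, 6.82, 7.29 and 7.15 in air. That exposed and air animals did not overlap was part of the rule by which these 6 genes were chosen. All 6 were called against first-set air, but of the 25 largest falls 6 were not, and 11 lost the call with RNA integrity as a covariate; of the 25 largest rises 5 were not called against first-set air and 2 lost the call with that covariate. The next in size included the receptor gene Gpr37 (2.31-fold lower), the phosphatase subunit Ppp2r2b (2.21-fold), the potassium channel subunit Lrrc26 (2.11-fold) and the netrin Ntn1 (1.86-fold).

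Falls by list are given beside the 5.86% of all genes that fell; most lists held 0 to 3 falls. Of 12 measured tuft cell and ionocyte markers 2 fell, Chodl and Pou2af3, a coactivator of the tuft cell program, and 10 of the 12 were below air (median −0.33); the summed signal of the 12 was 2463 to 4501 at 15 ppm against 3622 to 4475 in air. Of 25 cytochrome P450 and flavin monooxygenase genes 3 fell and 0 rose in limma. Por, the reductase that all microsomal P450 enzymes use, had 11.37, 11.20, 10.99 and 11.19 at 15 ppm against 11.87, 11.73, 11.89 and 11.86 in air, and Cyp4b1 fell by 0.73. Of 28 conjugating enzymes 0 were called in limma. Of 28 airway differentiation regulators 3 fell, Sox2, Foxa1 and Rfx2, by 0.54 to 0.76, and 1 rose, the Notch ligand Dll1, by 0.51. Of 26 ion channels and pumps 3 fell, among them Ano1, the calcium-gated chloride channel, by 0.76, and Slc12a2, the sodium, potassium and chloride cotransporter, by 0.52. Clock genes gave 5 falls and 2 rises among 19: Hlf had 10.22, 10.21, 9.85 and 10.14 at 15 ppm against 10.63, 10.55, 10.76 and 10.86 in air, but against first-set air 2 fell and 1 rose, and the median of −0.28 became 0.03. Of 20 cholesterol and fatty acid genes 4 fell and 2 rose, and Idi1, an isoprenoid isomerase, stood 0.68 above its own air and −0.07 from first-set air.

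**Figure D4:**
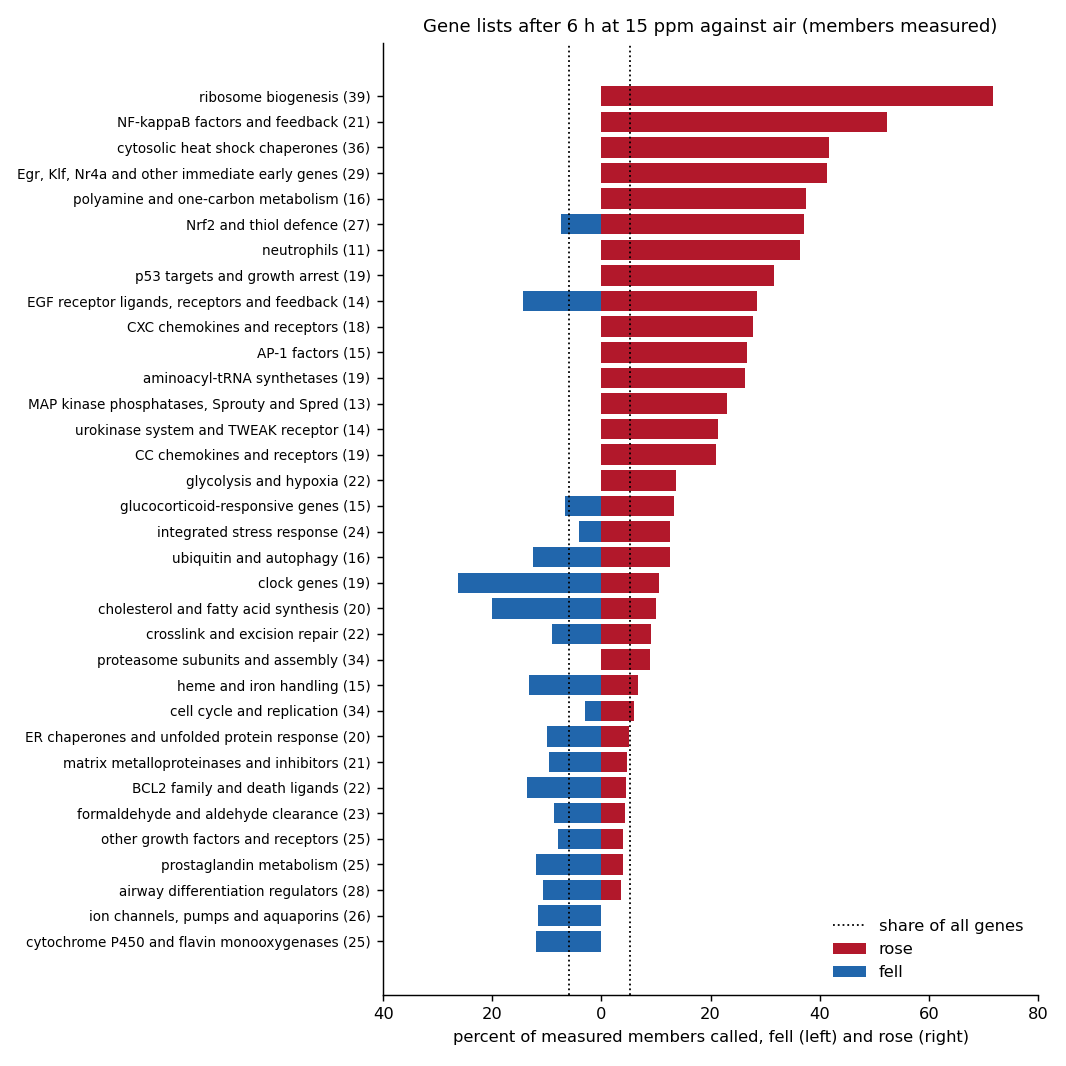
Percent of measured members called (x axis, right for rises and left for falls) in gene lists of 10 or more members with at least 3 calls, 15 ppm against air of the same array set; dotted lines mark the share of all genes, 5.23% up and 5.86% down. Ribosome biogenesis (28 of 39), NF-kappaB genes (11 of 21), chaperones (15 of 36) and immediate early genes (12 of 29) lead the rises.

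Structural cell type markers were not called, with wide spreads in some. Of 10 basal, 15 squamous, 8 ciliated, 12 olfactory, 9 endothelial, 16 stromal and muscle and 8 nerve markers 0 were called in limma, and of 17 secretory markers 1 rose, Lyz2, by 0.65. The shares over all genes were 5.23% up and 5.86% down. The 8 ciliated markers were all below air (median −0.27), their summed signal being 6352 to 7394 at 15 ppm against 7019 to 9154 in air. The summed signal of the squamous list was 4207 to 10031 at 15 ppm against 2059 to 28008 in air, and that of the olfactory list 8828 to 26203 at 15 ppm against 12751 to 23448 in air. At this spread a change of several-fold in squamous content was not detectable: the interval for Sprr1a ran from −1.97 to 1.65. Against first-set air the squamous median was −1.60, and the air groups themselves differed there by −1.21. The stroma and muscle list had a median of −0.72 and 3 falls against first-set air, and the nerve list −0.36 and 2 falls. Between the air groups the medians of these 2 lists were −0.59 and −0.24, with 3 and 1 members called lower in later-set air. The basal, squamous, ciliated, olfactory and endothelial lists had 0 calls against first-set air.

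Lower concentrations were compared to place the 15 ppm response, each against the air animals of its own array set, so that 0.7, 2 and 6 ppm share 1 air group and 15 ppm has another. The difference between the 15 ppm and the 6 ppm effect was called for 246 genes (1.73%), 213 positive and 33 negative, beside 47 genes (0.331%) called at 6 ppm itself. Of the 27 thiol defence genes 4 had risen at 6 ppm: Hmox1, Srxn1, Sqstm1 and Txnrd1. Hmox1 changed by 0.32, 0.33, 1.60 and 3.37 at 0.7, 2, 6 and 15 ppm, and its 15 ppm effect exceeded that at 6 ppm by 1.76 ± 0.33 (SE; limma adjusted p = 0.000507). Areg changed by −0.49, −0.29, −0.13 and 4.85, a difference of 4.98 ± 0.74 (adjusted p = 3.97e-06), and Egr2 by −0.21, 0.19, −0.14 and 3.48. The air animals of the later set lay 2.46 below those of the first set for Egr2 (limma adjusted p = 4.74e-08), and its 15 ppm change against first-set air was 1.02. Gadd45a changed by −0.09, −0.12, −0.06 and 1.64, a difference of 1.70 ± 0.19 (adjusted p = 3.26e-09). Of the ribosome genes 11 of 39 differed between the effects and 0 had been called at 6 ppm; Nop56 changed by −0.07, 0.03, 0.28 and 1.14, a difference of 0.86 ± 0.11 (adjusted p = 2.65e-07). Of the chaperones 8 of 36 and of the immediate early genes 9 of 29 differed, but each difference subtracts separate air groups, and 4 of these 36 and 9 of these 29 genes were called lower in the later-set air than in first-set air.

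Of the 25 largest rises at 15 ppm 21 differed from the 6 ppm effect, and of the 25 largest falls 2 did (Ntf3 and Gphn), a count that includes the 15 ppm values by which they were chosen. The air groups enter these counts too. Relative to later-set air, the mean of the 25 rises was 0.56 to 1.13 in first-set air animals and −0.03 to 0.04 in later-set ones. Fosb and Atf3 differed from the 6 ppm effect by 2.08 and 2.86, but stood only 0.01 and 0.16 above first-set air at 15 ppm. In the 6 ppm animals, which did not enter the choice of the 25 falls, 24 of the 25 were below air, where 55.3% of all genes were, and their median was −0.47. At 2 ppm, against the same air animals, their median was −0.16, and at 0.7 ppm 0.06. Chodl changed by 0.19, −0.48, −0.78 and −1.76 at 0.7, 2, 6 and 15 ppm, Pou2af3 by −0.08, −0.48, −0.73 and −1.13, and Pla2g4a by −0.06, −0.38, −0.76 and −1.02. Pou2af3 and Pla2g4a were called at 6 ppm (adjusted p = 0.0076 and 0.0465 in limma), and their effects at 15 and 6 ppm did not differ beyond error (−0.40 ± 0.21 and −0.26 ± 0.26, SE). The 25 largest rises had a median of 0.19 at 6 ppm, with 19 of 25 above air.

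**Figure D5:**
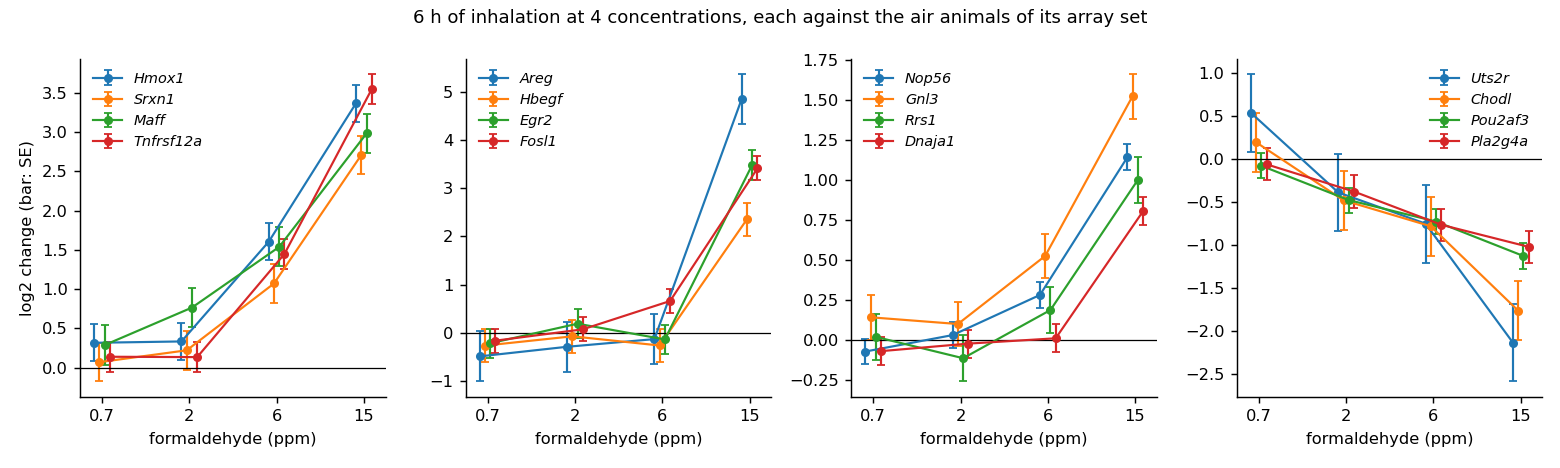
Log2 change from air after 6 h (y axis, bars show SE, n = 4 per group) at 0.7, 2, 6 and 15 ppm (x axis, evenly spaced) for 4 oxidative stress and TWEAK receptor genes, 4 growth factor and immediate early genes, 4 ribosome and chaperone genes, and 4 genes that fell; y scales differ between panels. Hmox1 is at 1.60 by 6 ppm, Areg is below 0 until 15 ppm, and Pla2g4a is at −0.76 by 6 ppm and −1.02 at 15 ppm.

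The instilled animals, on the same array set but with their own water controls, had more genes called: 1585 genes rose (11.1%) and 2149 fell (15.1%). Shared were 560 rises, which are 75.4% of the rises at 15 ppm and 35.3% of those after instillation, and 635 falls, which are 76.2% and 29.5%. The difference between the effects was called for 149 genes (1.05%). Of the ribosome genes after instillation, 28 of 39 rose, 25 of them called at 15 ppm too, with a median of 0.36, and 0 members were called in the difference between the effects by limma. Of the 25 largest rises at 15 ppm 1 differed from instillation, Ccl2, whose effect at 15 ppm was lower by 3.11, and of the 25 largest falls 0 did. Zfand2a was also lower at 15 ppm, by 0.95 (adjusted p = 0.0324 in limma). Of 27 cytokines and receptors 2 rose at 15 ppm and 15 after instillation, and 8 differed. Of 19 CC chemokines and receptors 4 rose at 15 ppm and 11 after instillation, and 6 differed. Of 18 CXC members 5 rose at 15 ppm and 10 after instillation, and 5 differed. Of 20 interferon-stimulated genes 0 rose at 15 ppm and 14 after instillation by limma, and 5 differed.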

How the data were processed

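Affymetrix arrays of nasal epithelial cells from 98 rats were used, 1 array per animal, so that their number limits the precision. The authors deposited log2 values per probe set in a series matrix; the summarisation and normalisation behind them are not given in the sources used here. Array medians lay between 5.94 and 6.07. After 57 control probe sets were left out, 31042 were fitted with limma 3.58.1 in R 4.3.3, with 1 coefficient per group (24 groups, 74 residual degrees of freedom), two-sided moderated tests and Benjamini-Hochberg adjustment over all probe sets at 0.05. Of the probe sets 20826 had 1 gene symbol, 436 several and 9780 none listed; only the first kind was named. Each gene was given by its brightest probe set. Genes named were drawn from the 25 largest rises and falls without overlap between groups, up to 4 members per list with the lowest p, every member behind a small count, and a fixed set. Not every gene of these sets is named in the text. A few others were chosen after their values were seen. Members and lists were chosen with earlier results of these data known, and lists were not tested as sets. Alternatives were another air group, fewer arrays, variance moderation, array weights, renormalization, a dim-probe filter, RNA integrity, probe set choice and leaving out animals. The fit was tested on simulated data. One gene list is not reported here.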

Additional observations from a re-analysis of the deposited data

Results flagged for a closer look

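Among 72 named genes, 144 groups of 4 animals were examined for a single animal far from the other three, and 9 such values were found; chance flags about 1 in 20 groups. At 15 ppm, animal 341 lay low for Adm, the vasodilator adrenomedullin, with 8.08 (others 8.54 to 8.63), for Il17ra with 8.05 (others 8.18 to 8.21) and for Aldh2 with 11.67 (others 12.17 to 12.18). Animal 342 lay high for Mat2a at 10.71 (others 10.42 to 10.47). In air, animal 325 lay low for Idi1 at 9.83 (others 10.29 to 10.36) and for Nars1 at 9.94 (others 10.25 to 10.29). Air animal 322 lay high for Klk10, a kallikrein of squamous epithelium, at 7.80 (others 4.44 to 4.86), and low for Por at 11.73 (others 11.86 to 11.89). Air animal 321 lay low for Pou2af3 at 9.24 (others 9.40 to 9.43).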

How the results depend on the processing

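No paired analysis was possible because no animal number occurs in more than 1 group. The 2636 probe sets called at 15 ppm became 4763 against first-set air (1615 shared), 4713 with array weights and 461 with RNA integrity as a covariate; leaving out 1 animal gave 1781 to 2549. The 370 called in the difference from the 6 ppm effect became 1099 with array weights and 214 to 464 without 1 animal, the lowest being 214 without exposed animal 342 and 238 without air animal 325 or 6 ppm animal 284. The 273 called in the difference from instillation became 84 in a fit of the arrays compared and 104 to 574 without 1 animal: 484 without instilled animal 369, 574 without 372, 104 without 374, 172 without water animal 355 and 167 without 352. The cause of these shifts was not tested. Of 242 called genes in the sets from which names were drawn, 165 held against first-set air, 65 lost the call and 12 turned sign: Alas1 0.0333, Cdc42 −0.0464, Cebpd −0.11, Dnajb1 −0.24, Egr1 −0.0411, Hspa1a −0.44, Idi1 −0.0655, Ndufb5 −0.0404, Nr1d2 0.0647, Psmc6 −0.0747, Xiap 0.32 and Zfp36 −0.44. Lum, not called against its own air, stood at −0.95. With RNA integrity as a covariate 92 held, 149 lost the call and Ephx1 turned to 0.00067; leaving out 1 animal lost 29 to 54. RNA integrity and exposure overlap in few animals, which limits that fit.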

Other observations

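Lists of energy supply, glucocorticoid response, cell death and heme handling are given beside the 5.23% of all genes that rose and the 5.86% that fell. Of 22 genes of glycolysis and hypoxia 3 rose and 0 fell in limma: Adm, by 1.55, Slc2a1, the glucose transporter GLUT1, by 0.39, and Pgam1, a glycolytic mutase, by 0.26. Of 25 genes of oxidative phosphorylation 2 rose, Coq10b by 1.17 and Ndufb5 by 0.21. Of 15 glucocorticoid-responsive genes 2 rose and 1 fell, with changes over the list from −0.47 to 1.37. The highest was that of Pdk4, the kinase that shuts off pyruvate dehydrogenase, which rose by 1.37. Among 22 genes of the BCL2 family and death ligands Bcl2l11, the BH3-only protein BIM, rose by 0.40, and Tnfsf10, the death ligand TRAIL, fell by 0.92, Bik by 0.65 and Xiap, a caspase inhibitor, by 0.41. Of 15 genes of heme and iron handling Flvcr1, a heme exporter, rose by 0.44, while Alas1, the first enzyme of heme synthesis, fell by 0.70 and Slc11a2, an iron transporter, by 0.37; against first-set air Alas1 stood at 0.03 and Slc11a2 at −0.04.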
